A study of Homo sapiens with 10 samples.

Results

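Ribosome biogenesis genes encode the proteins that transcribe, modify, cut and assemble ribosomal RNA into ribosomes. A list of 44 such genes was followed, matched by symbol to the 23228 genes of the count table. This list and the others were chosen with earlier results of these data known. Their shares are therefore a description and not a test. All 44 were present and all 44 passed the filter on low counts that left 14761 genes for testing. RNA came from RD, a human line from a rhabdomyosarcoma, a soft tissue tumour with features of skeletal muscle, known to carry an activating mutation of NRAS. Every group was made from the same line. RD cells were transfected with 10 nM of a nonspecific siRNA, NRAS siRNA 1 or NRAS siRNA 2, and collected after 48 h. Other RD cells were given 300 nM of the ERK inhibitor SCH772984, or its vehicle DMSO, for 24 h. Each of these 5 groups held 2 libraries, 10 in all.

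Ribosome production starts in the nucleolus, where RNA polymerase I copies the ribosomal DNA into a long precursor. Small nucleolar ribonucleoproteins (snoRNPs) modify this precursor, and separate assembly lines, the small subunit processome and the large subunit factors, fold and cut it while ribosomal proteins are added. Output rises with growth signals. ERK is known to phosphorylate polymerase I factors such as UBTF and RRN3, and the transcription factor MYC is known to induce many genes of the assembly lines. The comparisons ask whether transcripts of these genes depend on NRAS or on ERK activity.

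Libraries held 23224063 to 30768970 counts assigned to genes. NRAS was measured at 219.7 and 272 CPM (the count scaled to a library of 1000000 counts) with the nonspecific siRNA, and at 48.0 to 52.4 CPM over the 4 NRAS siRNA libraries. DUSP6, a phosphatase induced by ERK, stood at 265 and 292 CPM in DMSO and at 9.28 and 13.5 CPM with the inhibitor. Of the 12 muscle markers checked, DES was present at 520 to 928 counts per library and PAX3 at 258 to 393. FGFR4 had 321 to 592 counts and MYH3 77 to 116. MYOD1, MYOG and MYF5 had 0 to 5 counts, which is near the floor of 3 counts used here. PAX7, MYH8 and CHRND had at most 9 counts. CDH15 had 176 and 114 counts with the inhibitor and 5 to 31 in the other groups. CHRNA1 had 14 to 20 counts in both control groups, 3 to 7 with the NRAS siRNAs and 1 and 2 with the inhibitor. Of 13 markers of blood, endothelium, epithelium and liver, CD68, EPCAM and KDR passed the filter on low counts and the other 10 had at most 12 counts in any library. The blood marker CD68 had 50 to 127 counts and fell with the inhibitor by 0.94 on the log2 scale, the endothelial marker KDR had 10 and 13 counts in DMSO and 0 and 2 with the inhibitor, and the epithelial marker EPCAM had 39 to 77 counts. Their part in the results was not tested. Nothing in the labels tells whether the replicates were grown apart. The p-values therefore cover only the variation between libraries, part or all of which may be technical.

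Promoters of the genes were read from RefSeq, build GRCh38.p14, as windows of 250 bases before to 50 bases after the start. Of the 44 genes, 36 were matched by symbol. NOP58, NOLC1, RRP12, BOP1, RRS1, RRP1B, DDX18 and URB2 were not. The E-box CACGTG, the palindrome that MYC and its partner MAX are known to bind, was searched on both strands. It occurred in 13 of 36 windows (36.1%), against 998 of 9985 windows of tested genes (9.99%). Over all symbols of the RefSeq promoter set, in the count table or not, it occurred in 2030 of 27305 windows (7.43%). All 13 sites began between 15 bases before and 36 bases after the start. The 13 sites are shown because MYC, a known binder of this motif, is followed in the results. The E-box is in capitals, and bases are given 5′ to 3′ on the gene's strand.

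MYBBP1A: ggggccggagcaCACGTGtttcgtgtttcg
FBL: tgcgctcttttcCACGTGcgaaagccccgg
RRP9: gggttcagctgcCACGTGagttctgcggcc
NAT10: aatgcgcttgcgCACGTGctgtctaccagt
PUS7: gtcgctgcgccgCACGTGtgcgagcccggc
WDR43: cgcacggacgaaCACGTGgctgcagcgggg
UTP20: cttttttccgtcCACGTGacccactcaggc
NOL6: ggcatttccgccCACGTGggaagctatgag
NOP14: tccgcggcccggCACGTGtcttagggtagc
BYSL: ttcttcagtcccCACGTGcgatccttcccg
PES1: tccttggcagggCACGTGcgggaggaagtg
NOP2: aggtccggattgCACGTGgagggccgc
MRTO4: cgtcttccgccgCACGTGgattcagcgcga

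The sites lie at chr17:4555340-4555369 (MYBBP1A, minus strand), chr19:39846356-39846385 (FBL, minus) and chr3:51941892-51941921 (RRP9, minus). They lie at chr11:34105602-34105631 (NAT10, plus), chr7:105522226-105522255 (PUS7, minus) and chr2:28894658-28894687 (WDR43, plus). Those of UTP20, NOL6 and NOP14 are at chr12:101280083-101280112 (plus), chr9:33473894-33473923 (minus) and chr4:2963374-2963403 (minus). Those of BYSL, PES1, NOP2 and MRTO4 are at chr6:41921515-41921544 (plus), chr22:30591880-30591909 (minus), chr12:6568242-6568268 (minus) and chr1:19251807-19251836 (plus). Other motifs were searched the same way. The ETS core CCGGAA, bound by factors that ERK is known to activate, occurred in 16 of 36 windows (44.4%) against 28.2% of tested genes and 17.6% of all promoter windows. The core motif of NRF1 occurred in 11 of 36 (30.6%) against 11% and 6.28%, and the Kaiso-type palindrome in 1 of 36 (2.78%) against 0.901% and 0.469%. The median GC content of the windows was 60.5% for the 36 genes and 65.3% for tested genes. A match describes the letters of the window and not a bound site.

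For each library the deviation of log2(CPM + 0.5) from each gene's mean over all 10 libraries was averaged over the 44 genes. It was 0.176 and 0.422 in DMSO and -0.163 and -0.041 with SCH772984, so both inhibitor libraries lay below both DMSO libraries. With the nonspecific siRNA it was -0.015 and 0.219, with NRAS siRNA 1 it was -0.230 and 0.059, and with NRAS siRNA 2 it was -0.354 and -0.073. The range of siRNA 1 overlapped that of its control, and siRNA 2 lay below both control libraries. The 44 genes took 0.831% and 0.956% of gene counts in DMSO and 0.662% and 0.712% with the inhibitor.

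**Figure D1:**
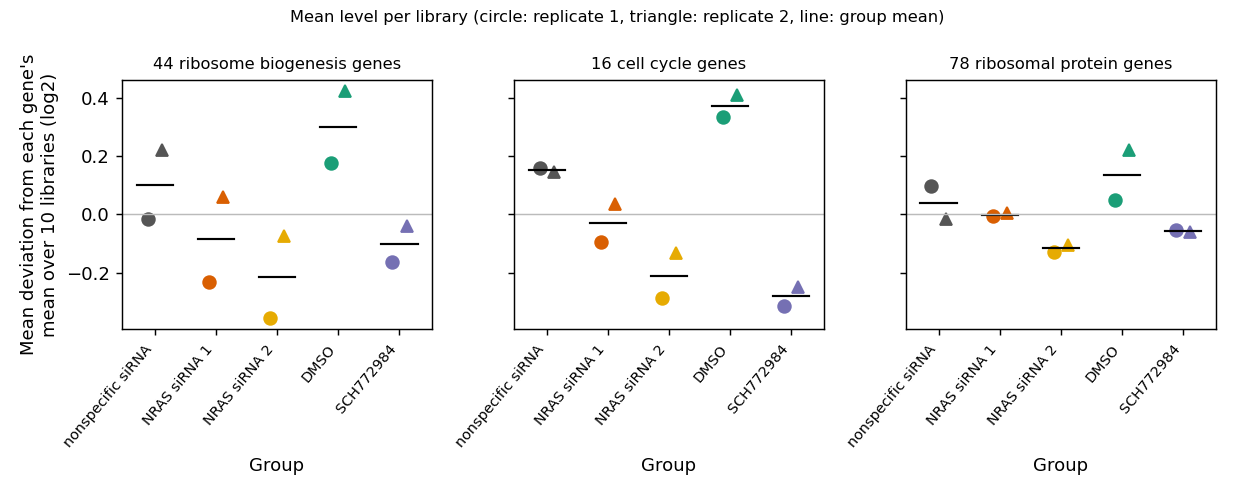
Mean deviation (log2) from each gene's mean over 10 libraries, for the 44 ribosome biogenesis genes, 16 cell cycle genes and 78 ribosomal protein genes, with 1 point per library and a line at each group mean. In the left panel the replicate 1 library (circle) lies below the replicate 2 library (triangle) in each of the 5 groups, and the inhibitor libraries, at -0.163 and -0.041, lie below the DMSO libraries, at 0.176 and 0.422.

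A second split crossed the groups. In each of the 5 groups the library labelled replicate 1 had the lower mean, by 0.122 with SCH772984 and by 0.234 to 0.289 in the other groups on the log2 scale. By contrast, the mean over all 14761 tested genes differed by at most 0.040 between replicates. Of the 44 genes, 41 to 44 were lower in replicate 1 within a group, and 38 were lower in replicate 1 in all 5 groups. MYC followed the same order in 4 groups, at 127 and 149 CPM with the nonspecific siRNA, 75.9 and 116 CPM with siRNA 1, 71.5 and 111 CPM with siRNA 2, and 125 and 155 CPM in DMSO. With SCH772984 it stood at 137 and 134 CPM. The 16 cell cycle genes were lower in replicate 1 in 4 of 5 groups. Replicate 1 held fewer gene counts than replicate 2 with the nonspecific siRNA, DMSO and SCH772984, and more with both NRAS siRNAs. With siRNA 1 the totals were close, at 27720721 and 27677755. What sets the replicates apart was not tested. This spread within groups enters every standard error given here.

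**Figure D2:**
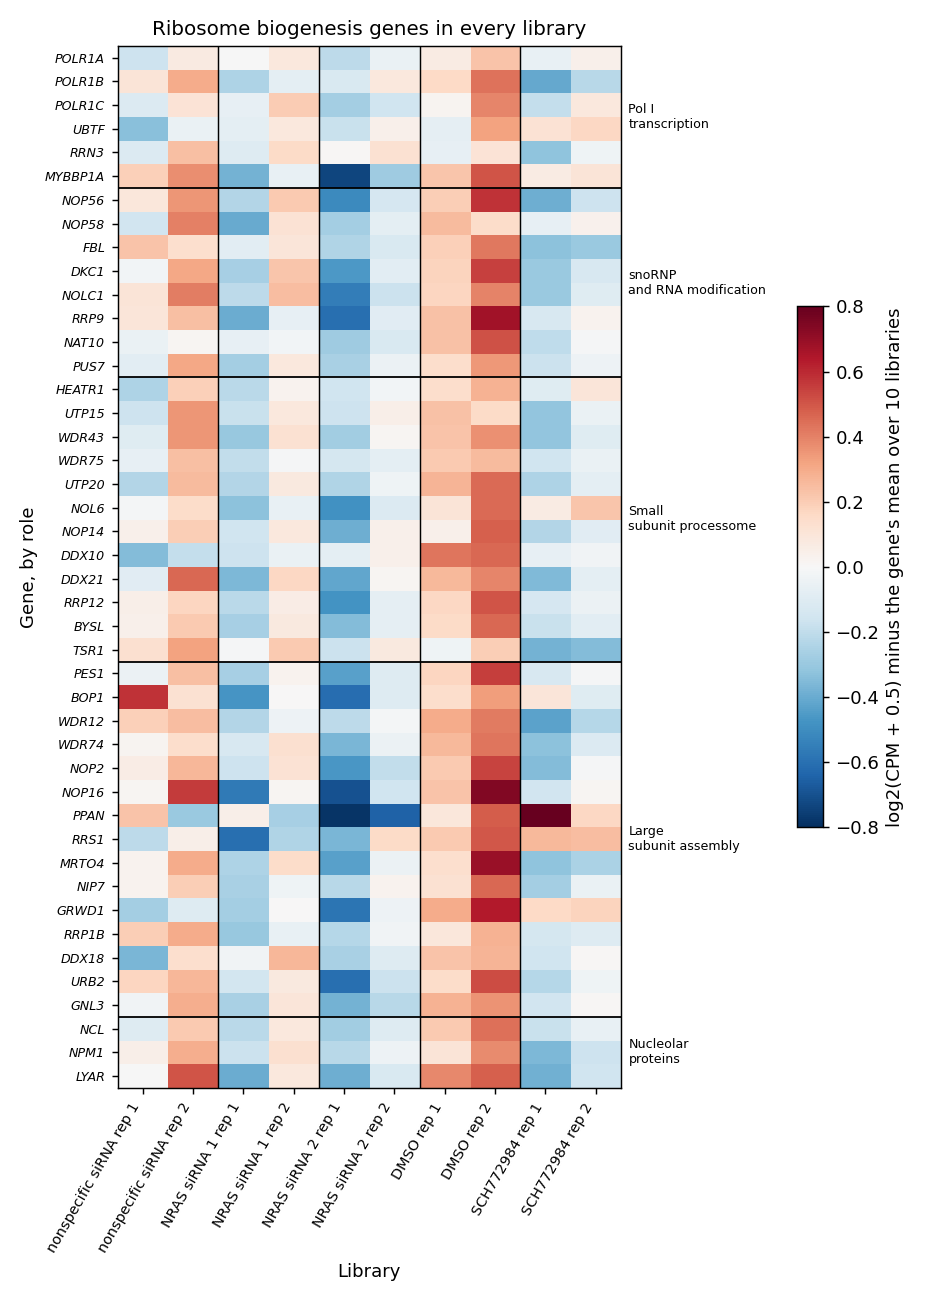
Each row is 1 of the 44 genes, ordered by role, and each column 1 of 10 libraries, with colour giving log2(CPM + 0.5) minus the gene's mean over the 10 libraries. DMSO replicate 2 is the highest column and NRAS siRNA 2 replicate 1 the lowest, with means of 0.422 and -0.354.

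With the ERK inhibitor, part of the genes of snoRNPs and of both assembly lines were called lower, as were all 3 genes listed as nucleolar proteins. By edgeR (quasi-likelihood F test, Benjamini-Hochberg adjusted p below 0.05), 17 of 44 genes fell and 0 rose, a share of 38.6% lower. Among all tested genes 14.8% were lower and 13.2% were higher. Because the 44 genes were chosen with earlier results of these data known, this difference in shares is a description. A total of 42 of 44 estimates were negative, and their median log2 fold change was -0.45, beside 0.00 over all tested genes. Changes were modest: the 17 genes fell by 0.34 to 0.73 on the log2 scale, to between 60.3% and 79.1% of the DMSO level, and 0 of 44 fell 2-fold. Both inhibitor libraries lay below both DMSO libraries in 38 of 44 genes, against 33.9% of all tested genes. Of the 27 genes that did not pass, 12 had an unadjusted p under 0.05. Over all 44 genes 29 did, beside 5971 of 14761 tested genes. With the replicate number as a block 33 genes were lower, where 20.1% of all genes were lower. The count of 17 became 3 without DMSO replicate 2, 3 without SCH772984 replicate 1 and 8 without SCH772984 replicate 2. FBL, WDR12 and DDX10 passed under all 16 alternatives tried. In bulk RNA, fewer cells in cycle and less RNA per cell cannot be told apart.

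**Figure D3:**
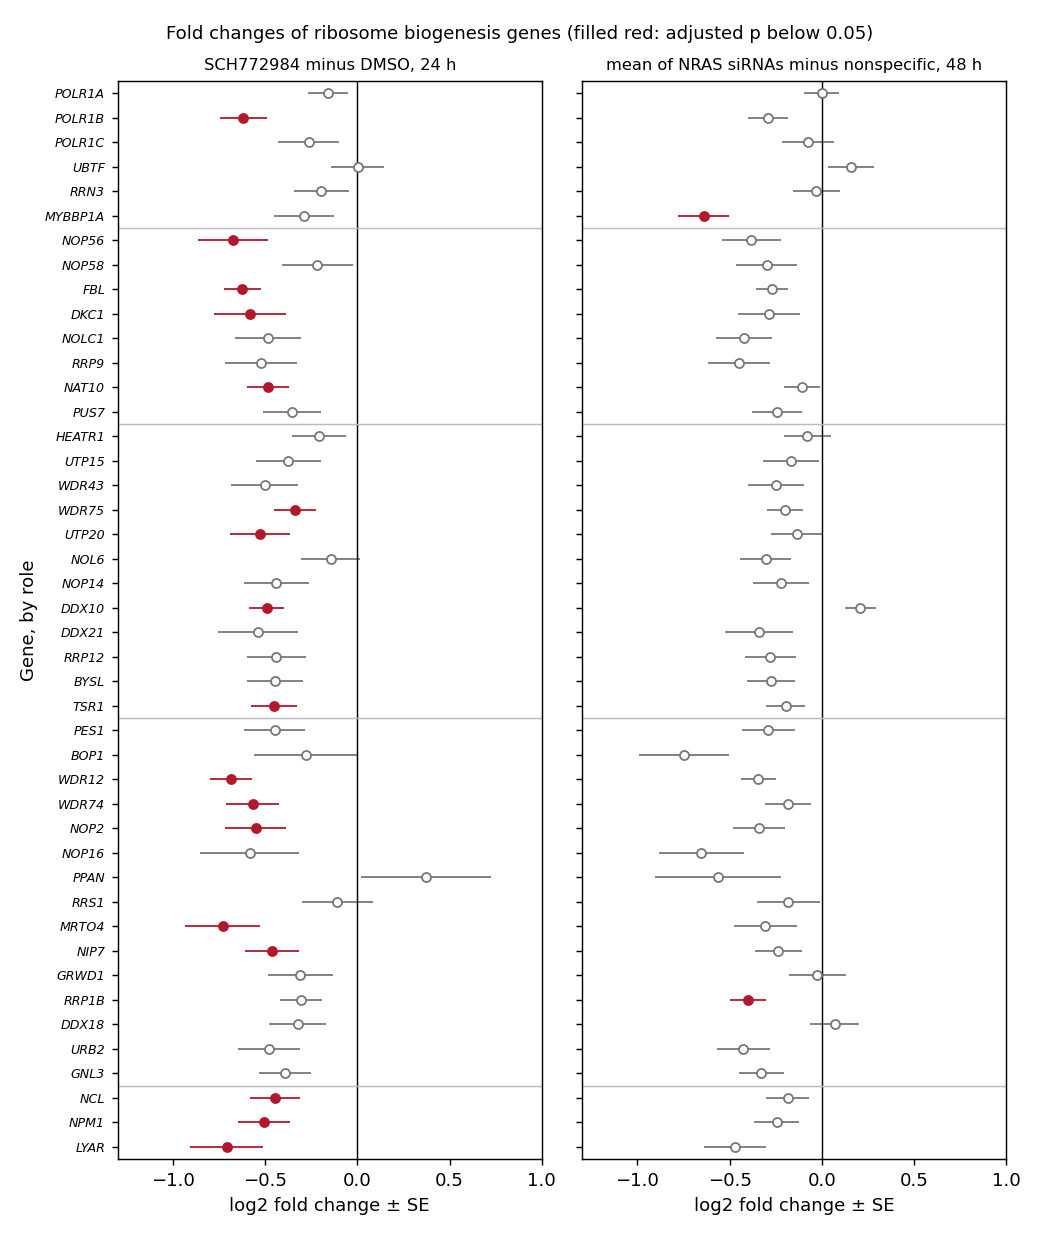
Log2 fold change ± SE of each of the 44 genes, by role, for SCH772984 against DMSO (left) and for the mean of both NRAS siRNAs against the nonspecific siRNA (right), with filled red points where adjusted p is below 0.05. On the left 17 genes are filled and all of them are negative, and on the right MYBBP1A and RRP1B are filled.

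With NRAS knockdown most estimates were negative and 2 passed. For the mean of both siRNAs 2 of 44 genes fell, MYBBP1A and RRP1B, and 0 rose. Both had larger estimates there than with the inhibitor. This share, 4.55%, was near the 4.99% of all tested genes called lower. A total of 40 of 44 estimates were negative, with a median of -0.27 beside -0.01 over all tested genes. An unadjusted p under 0.05 was found for 16 of 44, beside 3916 of 14761 tested genes. Tested separately, siRNA 1 called 0 of 44 genes in edgeR, and all genes gave 1.17% lower. Of the 44, 5 had an unadjusted p under 0.05 with siRNA 1, beside 2590 of 14761 tested genes. DESeq2 called 1 gene lower with siRNA 1. For siRNA 2 the count was 1 of 44, MYBBP1A, against 3.84% of all genes. All libraries of a siRNA lay below both control libraries in 11 of 44 genes for siRNA 1 (25.5% of all tested genes) and in 30 of 44 for siRNA 2 (29.1%). All 4 knockdown libraries lay below both control libraries in 10 of 44 genes (19.3% of all tested genes). Both calls were lost when the fit held just these 3 groups, and without either nonspecific library or replicate 1 of either NRAS siRNA, and RRP1B alone was lost without either SCH772984 library. The count rose to 8 with no filter on low counts. It rose to 24 with the replicate number as a block, where 12% of all genes were lower. The labels do not say that the numbers mark pairs.

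Among genes of polymerase I transcription 1 of 6 fell with the inhibitor, a share near that of all tested genes, and none rose, with a median of -0.23. POLR1B, the second-largest subunit of the enzyme, was measured at 228 and 275 CPM in DMSO and at 153 and 175 CPM with SCH772984. Its libraries did not overlap and it fell by 0.62 (SE 0.13, edgeR adjusted p = 0.00596). With the nonspecific siRNA it stood at 218 and 251 CPM, with siRNA 1 at 171 and 193 CPM and with siRNA 2 at 187 and 216 CPM, so all 4 knockdown libraries were below both controls. The log2 difference of -0.29 (SE 0.11) did not pass (edgeR adjusted p = 0.125). POLR1A, the largest subunit, stood at 109.9 and 123 CPM in DMSO and at 101 and 108 CPM with the inhibitor, a difference of -0.16 (SE 0.11, adjusted p = 0.31). POLR1C, a subunit shared with polymerase III, gave -0.26 (SE 0.16, adjusted p = 0.253).

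The initiation factors of polymerase I gave small estimates. UBTF, an HMG-box protein that coats the ribosomal DNA, was measured at 167 and 220.3 CPM in DMSO and at 191 and 197 CPM with the inhibitor, which lay between the DMSO values. RRN3, which brings the polymerase to the promoter, stood at 79.9 and 90.2 CPM against 66.9 and 81.6 CPM, with overlapping libraries and a difference of -0.20 (SE 0.15, edgeR adjusted p = 0.351). Knockdown gave 0.16 (SE 0.13) for UBTF and -0.03 (SE 0.13) for RRN3. MYBBP1A, a nucleolar protein that binds the polymerase I machinery, was called with knockdown. It was measured at 111 and 126 CPM with the nonspecific siRNA, 74.9 and 93.3 CPM with siRNA 1 and 58.3 and 80.0 CPM with siRNA 2. All 4 knockdown libraries lay below both controls, and it fell by 0.64 (SE 0.14, edgeR adjusted p = 0.0258). In DMSO it stood at 114 and 139 CPM and with SCH772984 at 102 and 104 CPM, a difference of -0.29 (SE 0.16, adjusted p = 0.213). The difference between both responses was -0.35 (SE 0.22) and did not pass (edgeR adjusted p = 0.359).

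Genes of snoRNPs and RNA modification had 4 of 8 lower with the inhibitor and none higher, with a median of -0.50. Of all tested genes 14.8% were lower. FBL encodes fibrillarin, the methyltransferase of box C/D snoRNPs, whose E-box site is shown above. It was measured at 357 and 420.1 CPM in DMSO and at 249 and 255 CPM with SCH772984. Both inhibitor libraries were far below both DMSO libraries, and it fell by 0.62 (SE 0.10, edgeR adjusted p = 0.00179). With the nonspecific siRNA FBL stood at 367 and 344 CPM, with siRNA 1 at 296 and 335 CPM and with siRNA 2 at 265 and 287 CPM. These groups did not overlap either, but the difference of -0.27 (SE 0.09) did not pass (edgeR adjusted p = 0.0858).

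NOP56 and NOP58, the paired core proteins of the same box C/D particle, differed in estimate. NOP56 was measured at 226 and 294 CPM in DMSO and at 150.3 and 175 CPM with the inhibitor, and fell by 0.68 (SE 0.19, edgeR adjusted p = 0.0242). NOP58 stood at 224 and 208 CPM against 179.6 and 192 CPM, a difference of -0.22 (SE 0.19, adjusted p = 0.426). No test was made between these 2 genes. Knockdown gave -0.38 (SE 0.16) for NOP56 and -0.30 (SE 0.16) for NOP58, and neither passed.

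DKC1, the pseudouridine synthase of box H/ACA snoRNPs, fell with the inhibitor by 0.58 (SE 0.20, edgeR adjusted p = 0.0489), from 154 and 199 CPM to 111 and 125 CPM. This call was close to the threshold and held under 11 of 16 alternatives. NAT10, which acetylates ribosomal RNA, fell by 0.49 (SE 0.11, edgeR adjusted p = 0.0115), from 132 and 159.7 CPM to 97.2 and 111 CPM. NAT10 was already lower in the nonspecific siRNA libraries, at 108 and 113 CPM, and stood at 107 and 110.2 CPM with siRNA 1 and 92.0 and 103 CPM with siRNA 2. NOLC1, a snoRNP chaperone, at -0.48 (SE 0.18), and RRP9, the protein specific to the U3 snoRNP, at -0.52 (SE 0.20), missed the threshold with edgeR adjusted p = 0.0669 and 0.0718. PUS7, a free-standing pseudouridine synthase, gave -0.36 (SE 0.16, adjusted p = 0.121). All 8 genes of this group had negative estimates with knockdown, from -0.11 to -0.45, and none passed.

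Small subunit processome genes had 4 of 12 lower with the inhibitor (33.3%, beside 14.8% of all tested genes) and none higher. Their median was -0.44 and all 12 estimates were negative. UTP20, a large scaffold protein of the processome, was measured at 222 and 251 CPM in DMSO and at 155 and 173 CPM with SCH772984. It fell by 0.53 (SE 0.16, edgeR adjusted p = 0.0372). TSR1, a late assembly factor, fell by 0.45 (SE 0.12, edgeR adjusted p = 0.0237), from 143 and 168 CPM to 112 and 115 CPM. WDR75, a processome protein linked to transcription of ribosomal DNA, fell by 0.34 (SE 0.11, edgeR adjusted p = 0.0474), from 202 and 209 CPM to 156 and 169 CPM, and held under 6 of 16 alternatives. Its transcription-linked partners HEATR1 at -0.21 (SE 0.15), UTP15 at -0.37 (SE 0.17) and WDR43 at -0.50 (SE 0.18) did not pass.

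DDX10, a DEAD-box RNA helicase, was the gene of this group that differed between the responses. It was measured at 73.9 and 75.4 CPM in DMSO and at 52.3 and 53.9 CPM with SCH772984, and fell by 0.49 (SE 0.10, edgeR adjusted p = 0.00459). With the nonspecific siRNA it stood at 43.0 and 47.9 CPM, with siRNA 1 at 48.9 and 52.9 CPM and with siRNA 2 at 51.9 and 56.5 CPM. All 4 knockdown libraries were above both controls, with a difference of 0.21 (SE 0.08) that did not pass (edgeR adjusted p = 0.151). The helicase DDX21, which acts on precursor RNA, stood at 434 and 474 CPM in DMSO and at 283 and 342 CPM with the inhibitor, a difference of -0.54 (SE 0.22, adjusted p = 0.0919). BYSL at -0.45 (SE 0.15), RRP12 at -0.44 (SE 0.16) and NOP14 at -0.44 (SE 0.18), all assembly factors of the small subunit, stood just outside the threshold with edgeR adjusted p = 0.0513, 0.0651 and 0.0869. NOL6, another processome protein, gave -0.15 (SE 0.16) with the inhibitor and -0.30 (SE 0.14) with knockdown. In this group 11 of 12 knockdown estimates were negative and none passed.

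Large subunit assembly genes had 5 of 15 lower with the inhibitor (33.3%, beside 14.8% of all tested genes) and none higher, with a median of -0.45. WDR12 belongs with PES1 and BOP1 to the PeBoW complex, which is needed to mature the large subunit RNA. WDR12 was measured at 124 and 134 CPM in DMSO and at 74.5 and 85.7 CPM with SCH772984. It fell by 0.69 (SE 0.11, edgeR adjusted p = 0.00191). Its levels were 115 and 119 CPM with the nonspecific siRNA, 85.3 and 97.6 CPM with siRNA 1 and 86.6 and 99.1 CPM with siRNA 2. These groups did not overlap, yet the knockdown difference of -0.34 (SE 0.10) just missed the threshold (edgeR adjusted p = 0.0554). PES1 stood at 119 and 155 CPM in DMSO and at 96.5 and 105 CPM with the inhibitor, a difference of -0.45 (SE 0.17, adjusted p = 0.0698).

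MRTO4, which helps assemble the ribosomal stalk, had the largest fall among the 17 called genes, 0.73 (SE 0.20, edgeR adjusted p = 0.0237). It was measured at 94.8 and 139 CPM in DMSO and at 68.9 and 72.1 CPM with the inhibitor. Its DMSO libraries were far apart, and the call was lost without DMSO replicate 2 and without either SCH772984 library. WDR74, an assembly factor, fell by 0.57 (SE 0.14, edgeR adjusted p = 0.0164), from 45.4 and 51.0 CPM to 30.0 and 35.0 CPM. NOP2, a methyltransferase of the large subunit RNA, fell by 0.55 (SE 0.16, edgeR adjusted p = 0.0317), from 114 and 143 CPM to 77.2 and 98.1 CPM. NIP7, an assembly factor, fell by 0.46 (SE 0.15, adjusted p = 0.0402), from 71.2 and 90.0 CPM to 54.0 and 62.8 CPM.

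RRP1B, a nucleolar assembly protein, was called with knockdown but not with the inhibitor. It was measured at 167 and 179.6 CPM with the nonspecific siRNA, 118 and 140.0 CPM with siRNA 1 and 124 and 143 CPM with siRNA 2. The groups did not overlap and it fell by 0.40 (SE 0.10, edgeR adjusted p = 0.0359). With SCH772984 it stood at 132 and 136 CPM against 155 and 177 CPM in DMSO, a difference of -0.31 (SE 0.11, adjusted p = 0.069). The responses were not shown to differ, at -0.09 (SE 0.15, edgeR adjusted p = 0.757). URB2, at -0.48 (SE 0.17), and the nucleolar GTPase GNL3, at -0.39 (SE 0.14), missed the threshold with the inhibitor with edgeR adjusted p = 0.0585 and 0.0618.

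NOP16 at -0.58 (SE 0.27), the helicase DDX18 at -0.32 (SE 0.15), GRWD1, a chaperone of a ribosomal protein, at -0.31 (SE 0.18) and RRS1, which brings in the 5S particle, at -0.11 (SE 0.19) did not pass with the inhibitor. BOP1 and PPAN had far fewer counts than the rest. Their lowest library held 23 counts, against 392 for the other 42 genes. PPAN stood at 1.76 and 2.47 CPM in DMSO and at 3.65 and 1.88 CPM with the inhibitor, and BOP1 at 3.39 and 3.95 CPM against 3.27 and 2.80 CPM. In a later annotation, GENCODE v29, 83.2% of the exonic bases of PPAN also belong to the readthrough gene PPAN-P2RY11, which is listed with 0 counts in all libraries here. The inhibitor estimates were 0.37 (SE 0.35) for PPAN and -0.28 (SE 0.28) for BOP1, and neither passed. With knockdown BOP1 gave -0.75 (SE 0.24, edgeR adjusted p = 0.0839) and PPAN -0.56 (SE 0.34). The same annotation shares 23.9% of HEATR1 with LGALS8 and 21.4% of TSR1 with SRR, both on the opposite strand, and the strand setting of the counting is not given. NPM1 has 45 named pseudogenes in it, so reads without a unique alignment may be missing from its count.

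Transcripts of all 3 nucleolar proteins listed apart from the assembly lines fell with the inhibitor, where 14.8% of all tested genes were lower. NCL encodes nucleolin, and its libraries held the highest counts of all 44 genes, up to 67168. It was measured at 2172 and 2549 CPM in DMSO and at 1662 and 1803 CPM with SCH772984, and fell by 0.45 (SE 0.14, edgeR adjusted p = 0.0351). NPM1, which encodes the nucleolar chaperone nucleophosmin, fell by 0.51 (SE 0.14, edgeR adjusted p = 0.0237), from 352 and 427 CPM to 255 and 292 CPM. LYAR, a nucleolar zinc-finger protein, fell by 0.71 (SE 0.20, edgeR adjusted p = 0.0245), from 49.8 and 53.2 CPM to 29 and 34.0 CPM. Knockdown gave -0.18 (SE 0.12), -0.25 (SE 0.12) and -0.47 (SE 0.17) for NCL, NPM1 and LYAR, and none passed.

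A direct test of the mean siRNA response against the inhibitor response called 1 of 44 genes, DDX10, with a difference of 0.70 (SE 0.13, edgeR adjusted p = 0.0137), among 2.73% of all genes with such a positive difference. No gene of the 44 had a called negative difference, where 4.57% of all genes did. In either direction 4 of 44 had an unadjusted p under 0.05, beside 3545 of 14761 tested genes. The responses come from different times, 24 h and 48 h, and from treatments that moved an ERK output by different amounts. DUSP6 fell by 4.61 (SE 0.19) with the inhibitor and by 1.24 (SE 0.14) with knockdown.

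The control groups were also compared, since time, transfection and vehicle differ between them together. Nonspecific siRNA libraries were lower than DMSO libraries in 40 of 44 estimates, with a median of -0.19 beside -0.01 for all tested genes. One of 44 genes passed, DDX10 at -0.72 (SE 0.10, edgeR adjusted p = 0.0239), against 0.108% of all genes called lower. Both nonspecific libraries lay below both DMSO libraries in 9 of 44 genes (18.6% of all tested genes), namely NAT10, UTP20, DDX10, WDR12, WDR74, RRS1, GRWD1, DDX18 and NCL. GRWD1 stood at 79.9 and 89.7 CPM with the nonspecific siRNA and at 118 and 150.2 CPM in DMSO. Between both NRAS siRNAs edgeR called 0 of 44 genes, and DESeq2 called 0, where edgeR called 0.427% of all genes. An unadjusted p under 0.05 was found for 0 of 44, beside 881 of 14761 tested genes. Estimates were higher with siRNA 1 in 37 of 44 genes, with a median of 0.13.

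Of 130 further ribosome biogenesis genes, grouped by role, 39 fell with the inhibitor (30.0%) and 0 rose, with a median of -0.30. The share of all tested genes called lower was 14.8%. By knockdown 9 fell (6.92%, beside 4.99% of all tested genes) and 1 rose, with a median of -0.14. The RNA exosome and decay list had 8 of 15 lower with the inhibitor, among them the core subunits EXOSC8 at -0.65 (SE 0.14) and EXOSC9 at -0.56 (SE 0.11). Its gene that rose with knockdown was C1D, an exosome cofactor, at 0.72 (SE 0.13), while the subunit EXOSC5 fell by 0.80 (SE 0.14). Further snoRNP and modification genes had 9 of 18 lower, such as TCOF1, which encodes the nucleolar protein treacle, at -0.64 (SE 0.15), and RUVBL1, a snoRNP assembly ATPase, at -0.58 (SE 0.10).

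Further large subunit genes had 12 of 44 lower, including EBNA1BP2 at -0.76 (SE 0.21) and NOC2L at -0.67 (SE 0.12). Further small subunit genes had 8 of 40 lower (20%, beside 14.8% of all tested genes), including UTP18 at -0.79 (SE 0.15) and PWP2 at -0.61 (SE 0.12). Further polymerase I genes had 2 of 13 lower (15.4%), a share near that of all tested genes. The 2 were the subunit ZNRD1 at -0.45 (SE 0.12) and the silencing factor BAZ2A at -0.35 (SE 0.08). Polymerase III genes, whose enzyme makes 5S ribosomal RNA and transfer RNA, had 4 of 19 lower (21.1%), led by the subunit POLR3K at -0.79 (SE 0.15). All of these genes passed edgeR's adjusted threshold of 0.05.

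**Figure D4:**
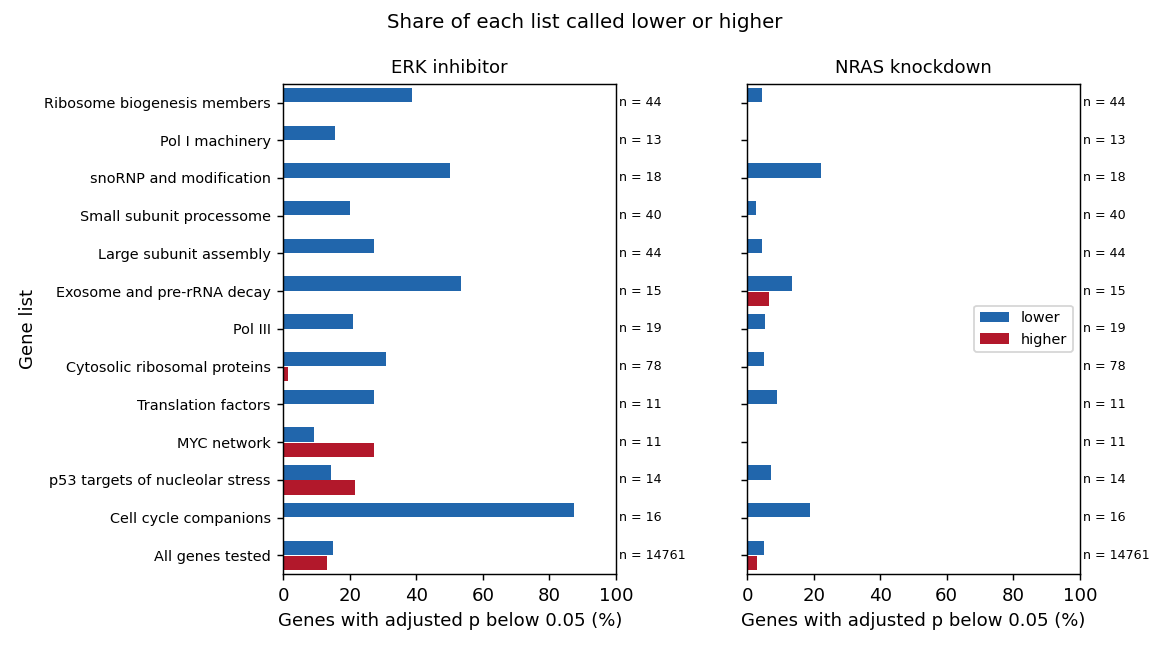
Share of genes in each list called lower (blue) or higher (red) at adjusted p below 0.05, for the ERK inhibitor (left) and for NRAS knockdown (right), with the number of tested genes at the right of each bar pair. With the inhibitor 38.6% of the 44 ribosome biogenesis genes are lower and none higher, beside 14.8% lower and 13.2% higher among all tested genes.

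Cytosolic ribosomal protein genes had 24 of 78 lower and 1 higher with the inhibitor, with a median of -0.22, led by RPL37A at -0.66 (SE 0.10). Their many pseudogenes make these counts uncertain. Translation factors had 3 of 11 lower, including EIF4EBP1, a brake on cap-dependent translation, at -0.60 (SE 0.14), which also fell with knockdown by 0.58 (SE 0.12). Of 11 tested genes of the MYC network 1 was lower and 3 were higher with the inhibitor, with a median of 0.28. MLX fell by 0.51 (SE 0.11), and MXD4, MXD1 and MLXIP rose. MYC itself gave -0.05 (SE 0.23) with the inhibitor and -0.56 (SE 0.19, edgeR adjusted p = 0.101) with knockdown. MYCN had 0 to 5 counts per library. MXD4, a repressor that competes with MYC for MAX, rose with the inhibitor by 1.83 (SE 0.24, edgeR adjusted p = 0.000557), from 20.5 and 15.4 CPM to 76.1 and 51.8 CPM. MXD1, of the same repressor family, rose by 0.75 (SE 0.16, adjusted p = 0.00658). Of the p53 targets 2 of 14 were lower and 3 higher with the inhibitor, with a median of 0.06, and 1 of 14 was lower with knockdown. Over all tested genes 14.8% were lower and 13.2% higher with the inhibitor, and 4.99% were lower with knockdown.

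Cell cycle genes fell as well. Of 16 such genes 14 fell with the inhibitor and 3 with knockdown, with medians of -0.64 and -0.28. Among all tested genes 14.8% were lower with the inhibitor and 4.99% with knockdown. Their mean deviation was 0.333 and 0.407 in DMSO and -0.313 and -0.248 with SCH772984. The part of cell cycle in the falls of the 44 genes was not tested. Genes with the E-box in their promoter had 5 of 13 lower with the inhibitor and a median of -0.49. Those without it had 12 of 23 lower and a median of -0.45. These values are given as a description.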

How the data were processed

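Counts of reads per gene were deposited by the authors, not normalised; the tools listed in the submitters' processing notes are HTSeq, TopHat2, SAMtools and bcl2fastq, and the builds GRCh37 and hg19. Not given in the sources used here: versions, gene annotation and strand setting. The 10 sample files matched the series table in every cell. Left out were 5 category lines that name no gene, 38.3 to 39.4% of reads, mostly reads without a unique alignment (27.0 to 28.9%).

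Groups came from sample titles. Replicates differed by more than sampling noise, with a chi-square of 13.9 to 26.8 times its degrees of freedom. The test was that of edgeR 4.0.16, run in R 4.3.3 (glmQLFit, glmQLFTest, TMM scaling, filterByExpr at a minimum count of 10) in 1 fit of all 10 libraries with 5 residual degrees of freedom, and adjusted by Benjamini-Hochberg over 14761 genes. DESeq2 1.42.0, other scalings, no filter, only the groups compared, the replicate number as a block, and leaving out each library were alternatives. The fit was tested on simulated data.

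The 44 genes and all lists were chosen with earlier results of these data known. Named genes are the 44, genes fixed by name (MYC, MYCN, NRAS, DUSP6, SPRY4) and up to 4 per list with the greatest changes past the threshold at 5 CPM or more, of which the text gives a part. Promoter windows came from RefSeq (GRCh38.p14), and gene overlaps from GENCODE v29 by name only, since builds differ.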

Additional observations from a re-analysis of the deposited data

Results flagged for a closer look

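DDX10 was the gene of the 44 whose response differed between the comparisons. The mean NRAS siRNA response minus the ERK inhibitor response was 0.70 (SE 0.13, edgeR adjusted p = 0.0137). DDX10 was also the gene that differed between the control groups, by -0.72 (SE 0.10, edgeR adjusted p = 0.0239) for nonspecific siRNA against DMSO. Its 4 knockdown libraries, at 48.9 to 56.5 CPM, lay above both nonspecific libraries, at 43.0 and 47.9 CPM, and near the inhibitor libraries, at 52.3 and 53.9 CPM. The DMSO libraries, at 73.9 and 75.4 CPM, stood apart from the other 8. Which control level is the usual one for these cells was not tested. Without DMSO replicate 2, or without SCH772984 replicate 1, the difference between responses did not pass. The difference between control groups did not pass without any 1 of the DMSO, nonspecific siRNA or SCH772984 libraries, with edgeR adjusted p from 0.0515 to 0.215.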

How the results depend on the processing

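With the replicate number as a block (replicate block), genes lower with the ERK inhibitor numbered 33 of 44 in place of 17 (20.1% of all genes lower), with NRAS knockdown 24 in place of 2 (12%), with siRNA 1 5, with siRNA 2 24 lower and 1 higher, in the control groups 3, and higher in the interaction 5. Whether a shared number marks a pair is not in the labels. Deviations of same-numbered libraries correlated between 2 groups with r of 0.024 to 0.562 over tested genes. Over the 44 genes r ran from -0.312 to 0.691, with 5 of 10 group pairs negative. A correlation removes the mean shift that the 44 genes shared between replicates, so these r values do not measure that shift. They do not decide whether the numbers mark pairs.

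With the ERK inhibitor DESeq2 gave 26 lower, no filter 27 and only the groups compared 30, and each included the 17. The median inhibitor estimate of the 44 genes was -0.44, -0.43 and -0.45 in these fits, beside -0.45 in the main fit. With knockdown these fits gave 4, 8 and 0 lower, with siRNA 2 9, 9 and 0, and in the control groups 2, 2 and 0. With siRNA 1 DESeq2 and no filter gave 1 each. The cause was not tested. Except where a share is printed, the share of all genes called in an alternative fit is not given here. Such counts cannot be set against it. Leaving out 1 library gave 3 to 20 lower with the inhibitor, 0 to 6 with knockdown, 0 to 3 with siRNA 2, 0 to 1 in the control groups and 0 to 1 higher in the interaction.

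Some estimates that did not pass changed sign. For UBTF with the inhibitor it was -0.003 in a fit of only the groups compared. Without 1 library the inhibitor estimate ran from -0.185 to 0.242 for UBTF, -0.312 to 0.069 for NOL6, -0.178 to 0.780 for PPAN and -0.250 to 0.076 for RRS1. The knockdown estimate ran from -0.093 to 0.124 for POLR1A, -0.161 to 0.041 for POLR1C, -0.173 to 0.157 for RRN3 and -0.531 to 0.006 for NOP58. It ran from -0.259 to 0.157 for HEATR1, -0.386 to 0.121 for UTP15, -0.338 to 0.131 for UTP20, -0.172 to 0.1 for GRWD1 and -0.138 to 0.340 for DDX18.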
